A study of Mus musculus with 12 samples.

Results

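Of 2 interferon-induced GTPase families, 7 genes were examined: the guanylate-binding proteins (GBPs) Gbp2, Gbp2b, Gbp3 and Gbp7, and the immunity-related GTPases (IRGs) Irgm1, Irgm2 and Igtp. They were found by matching the gene identifiers of the count table to these symbols. This gave 7 of 47643 genes, all of which passed the filter on low counts. The 7 were chosen by their CPM in these libraries, high in the 2 groups KO and 41585, so their levels, folds and counts of calls are given as a description, which supports nothing by itself.

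GBPs are large dynamin-like GTPases, and IRGs are smaller GTPases. Cells make both when interferons signal through JAK kinases to STAT and IRF transcription factors, which bind 2 kinds of DNA element near the induced genes, the interferon-stimulated response element (ISRE) and the gamma-activated site (GAS). Both families act inside the infected cell, where they gather on the vacuoles that hold bacteria and parasites. Mouse embryonic stem cells are known to make little type I interferon and to answer it weakly.

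The libraries came from E14 mouse embryonic stem cells of the 129/Ola background, grown in serum with LIF on gelatine and in puromycin medium. There were 6 groups of 2 libraries. WT is wild type and KO lacks Dicer, the ribonuclease that makes miRNAs and siRNAs. The other 4 groups, SOM, 41584, 41585 and 41589, are Dicer-complemented lines. Line 41584 is described as resembling WT, line 41585 as processing neither miRNAs nor siRNAs, and line 41589 as lacking siRNA processing. No description of processing is given for SOM. The sources used here do not give what the names stand for, which part of Dicer1 was deleted, what was put back, how many clones were used, or whether libraries of 1 group are separate cultures. The p-values below therefore measure only the spread between these libraries, which may be technical. A clone's own differences and those of its genotype cannot be told apart.

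Each library held 5348401 to 10428509 counted reads, so that 1 read was worth 0.0913 to 0.188 CPM, the unit that scales the reads of a gene by its library's total. Dicer1 was at 197 and 214 CPM in WT and at 28.5 and 44.0 in KO, a log2 fold of −2.50 ± 0.36 (SE, n = 2 per group, edgeR adjusted p = 0.0015). It was also low in 41585 (29.1 and 39.2), 41584 (42.3 and 55.0) and 41589 (40.2 and 27.8), and was at 105 and 215 in SOM. The Dicer1 count thus told WT from KO and did not tell 41584 and 41589 from 41585. The markers of embryonic stem cells, 6 genes, summed to 5560 to 6190 CPM in the KO and 41585 libraries and to 4480 to 5500 in the other 8, without overlap. The markers did not move together. Mean CPM of Dppa5a was 3370 in KO and 3030 in 41585, against 2030 to 2250 in the other groups. Means were lower for Sox2 (386 and 326 against 391 to 563), Nanog (597 and 568 against 666 to 757) and Zfp42 (522 and 592 against 720 to 842). Those of Pou5f1 and Esrrb overlapped. The part of this and the next marker differences in the results was not tested. Those of macrophages and other blood cells, also 6, summed to 20.5 to 28.1 CPM in the KO and 41585 libraries and to 9.33 to 18.9 in the other 8, nearly all of it from Cd68, while Adgre1 and Lyz2 were at 0 in all 12 libraries and Ptprc had 3 reads in all. The fibroblast markers summed to 8.93 to 17.9 CPM in KO and 41585 and to 8.55 to 41.2 elsewhere. Those of primitive endoderm summed to 4.93 to 8.75 and 5.21 to 34.6 CPM in the same order, and those of endothelium to 11.2 to 15.9 and 14.0 to 48.1. In bulk RNA, more cells with a transcript and more transcript per cell cannot be told apart. On the second principal component of all genes, both SOM libraries and replicate 2 of 41584 and of 41589 stood apart at −39.6 to −51.1, while the WT libraries and replicate 1 of 41584 and of 41589 lay at 9.0 to 53.8.

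The promoters of the 7 genes are shown first, because interferon signalling acts through the 2 kinds of element that were searched for in them. RefSeq promoters (GRCm38.p6, 250 bases before to 50 after the start) were matched for 7 of 7 genes, with 8 windows, since Gbp3 has 2 starts. Each was searched on both strands for an ISRE core, which is GAAA, any 2 bases and GAAA again, and for a GAS core, TTCNNNGAA. The 2 words do not overlap where both occur here. The 100 bases around the ISRE core are printed 5′ to 3′ on the strand of the gene, with matches to either core in capitals, so that an ISRE core on the other strand reads TTTC, any 2 bases and TTTC. Each run ends no more than 30 bases past the start.
Gbp2 (chr3:142620564-142620663, plus strand): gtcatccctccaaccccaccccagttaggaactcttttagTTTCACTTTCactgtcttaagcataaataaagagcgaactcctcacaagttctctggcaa
Gbp2b (chr3:142594670-142594769, plus strand): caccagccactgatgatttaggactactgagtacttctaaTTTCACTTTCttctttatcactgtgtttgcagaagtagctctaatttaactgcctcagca
Gbp3 (chr3:142559959-142560058, plus strand): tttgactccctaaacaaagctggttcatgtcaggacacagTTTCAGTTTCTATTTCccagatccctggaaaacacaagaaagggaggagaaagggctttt
Gbp7 (chr3:142530243-142530342, plus strand): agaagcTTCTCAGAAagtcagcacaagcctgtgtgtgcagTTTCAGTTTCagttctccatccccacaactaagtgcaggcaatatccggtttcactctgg
Irgm1 (chr11:48871391-48871490, minus strand): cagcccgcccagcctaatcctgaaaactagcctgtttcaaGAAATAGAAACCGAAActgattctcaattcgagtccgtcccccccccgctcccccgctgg
Irgm2 (chr11:58214873-58214972, plus strand): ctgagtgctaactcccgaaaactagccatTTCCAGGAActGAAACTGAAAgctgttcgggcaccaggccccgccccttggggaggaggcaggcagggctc
Igtp (chr11:58199482-58199581, plus strand): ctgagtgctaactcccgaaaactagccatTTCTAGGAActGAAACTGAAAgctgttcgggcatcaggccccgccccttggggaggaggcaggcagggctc

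All 7 genes held the ISRE core in a window, against 3.99% of the 27025 genes with a promoter in the table. Its first base lay 59 bases before the start in Gbp2, 137 in Gbp2b, 53 in Gbp7, 64 in Irgm2 and 34 in Igtp. In Gbp3 and Irgm1, 2 overlapping copies of the core make the longer run of capitals. Those of Gbp3 began 45 and 39 bases before the start, and those of Irgm1 30 and 24 bases before it. The window at the other start of Gbp3 held no match.

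The GAS core was found in Gbp7, Irgm2 and Igtp, which is 3 of the 7, against 9.55% of all genes. It occurred 2 times in Gbp7, with the farther copy outside the printed run, and once each in the others, always farther from the start than the ISRE core. Both words together were held by 3 of the 7 genes, by 5 of 10 promoters of other family members and by 0.54% of all genes. The GAS core, with or without the ISRE core, was held by 5 of those 10, by 8 of 24 promoters of antiviral genes and by 7 of 21 of interferon signalling genes. Of the promoters of other family members, 6 of 10 held the ISRE core. It was held by 13 of 24 promoters of antiviral genes, 3 of 21 of interferon signalling genes, 4 of 14 of class I antigen presentation genes and 0 of 12 of prenylation and conjugation genes. These 5 lists are described with their results. A match is a run of letters, and binding was not measured.

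The promoters of Igtp and Irgm2 are near copies. In the printed windows 98 of 100 bases are the same. The Irgm2 window lies inside the span of its gene in the annotation used for the counts here, whose longest model starts next to Igtp. Their exons share 162 bases, 8.0% of the exon length of Igtp and 4.4% of that of Irgm2, so the reads of these neighbours cannot be fully told apart.

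**Figure D1:**
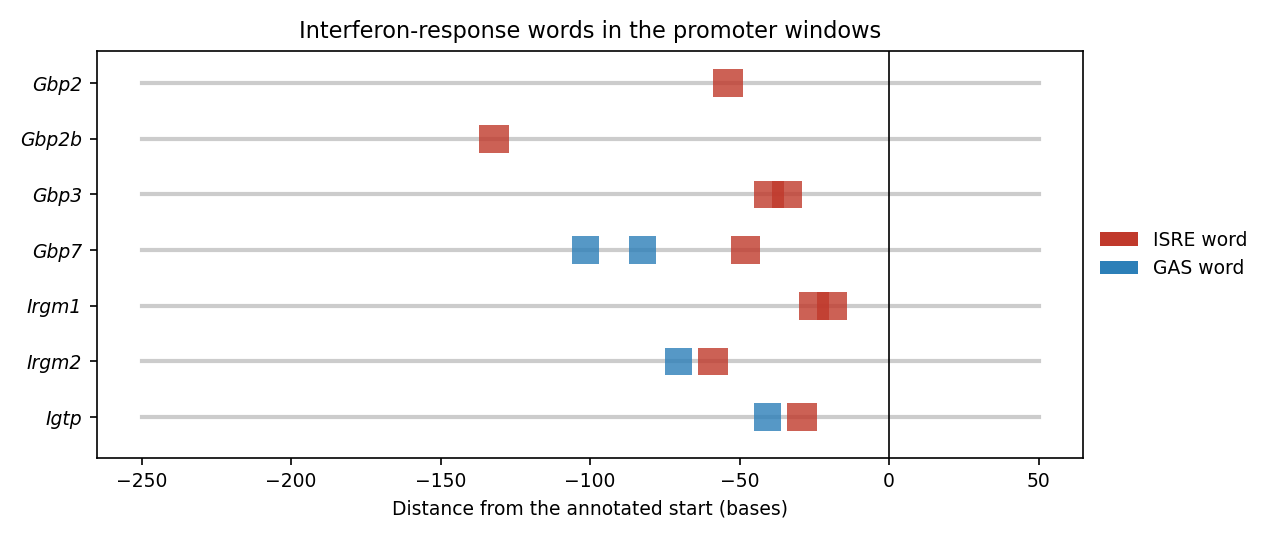
Positions of the ISRE cores (red) and GAS cores (blue) in the promoter window of each of the 7 genes, in bases from the annotated start at 0, with the searched window as a grey line. In 6 of the 7 genes every ISRE core begins within 64 bases of the start, and in Gbp2b it begins 137 bases before it.

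The 4 GBP genes stand in a row on chromosome 3, all on the plus strand of GRCm38. Gbp7 (ENSMUSG00000040253) lies at 142530342–142550149, Gbp3 (ENSMUSG00000028268) at 142560026–142573209, Gbp2b (ENSMUSG00000040264) at 142594847–142619179 and Gbp2 (ENSMUSG00000028270) at 142620602–142638008. The 3 IRG genes are on chromosome 11. Irgm1 (ENSMUSG00000046879) lies at 48861968–48871683 on the minus strand. Igtp (ENSMUSG00000078853) at 58199556–58207591 and Irgm2 (ENSMUSG00000069874) at 58199618–58222782 overlap on the plus strand.

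The summed level of the 7 genes was 6.34 and 8.09 CPM in WT, 106 and 71.9 in KO, 66.1 and 70.6 in 41585, 8.31 and 8.55 in 41584, 7.27 and 10.6 in 41589, and 5.48 and 15.0 in SOM. KO and 41585 were far above the other 4 groups, whose libraries lay within 5.48 to 15.0 CPM. The ratio of the means was 12.3 for KO against WT and 8.11 for 41585 against 41584, 2 comparisons that share no library. It was 1.06 for 41589 against 41584, less than the spread of 41589, and 1.17 for 41584 against WT.

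The GBPs together went from 1.08 ± 0.645 CPM in WT (SD, n = 2) to 47.9 ± 12.9 in KO, a ratio of 44.6, and from 0.347 ± 0.0513 in 41584 to 33.8 ± 3.63 in 41585, a ratio of 97.4. The 3 IRGs together, of which Irgm2 and Igtp were present in every library, went from 6.14 ± 0.595 to 40.8 ± 10.8 CPM (ratio 6.64) and from 8.08 ± 0.221 to 34.5 ± 6.82 CPM (ratio 4.27).

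**Figure D2:**
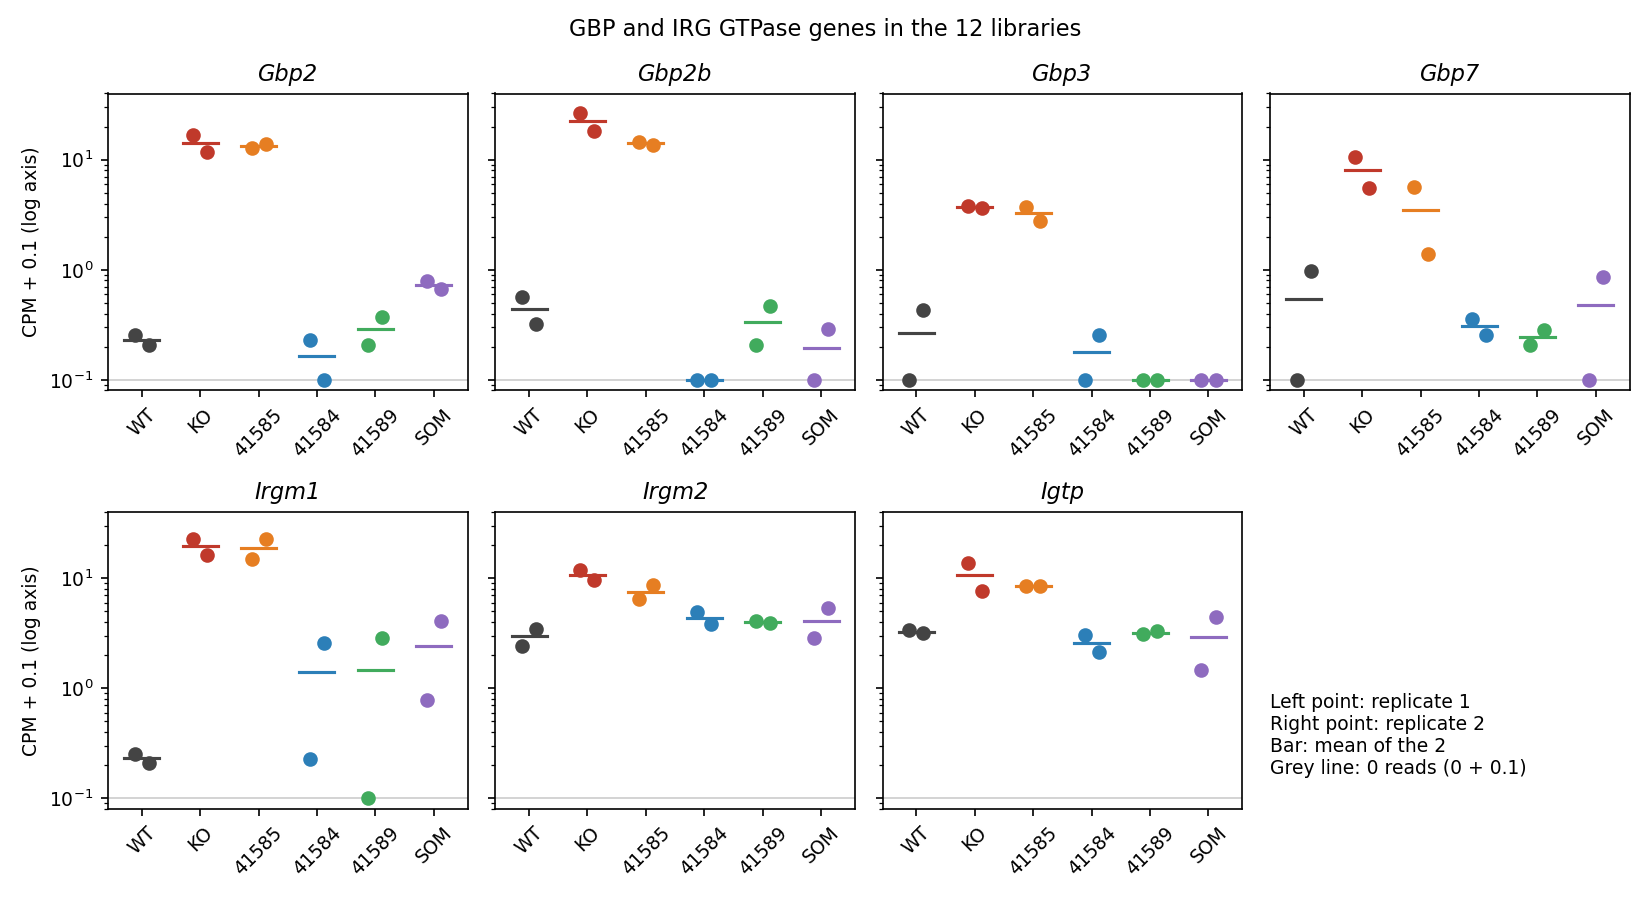
CPM of each gene in the 12 libraries on a log axis, after adding 0.1 so that libraries without a read can be drawn. Points are libraries, bars are the means of 2, and for all 7 genes the 4 KO and 41585 libraries lie above the other 8, with the narrowest gap for Irgm2 (6.32 against 5.26 CPM).

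Gbp2 encodes a GBP that is lipid-anchored to membranes and restricts parasites and bacteria in their vacuoles. It was at 0.155 and 0.109 CPM in WT, which is 1 read in each library, and at 16.6 and 11.7 CPM in KO. In 41585 it was at 12.8 and 13.8 CPM, against 0.128 and 0 in 41584. It was at 0.107 and 0.274 CPM in 41589 and at 0.686 and 0.564 in SOM. The KO and 41585 libraries overlapped one another and were at least 17.1 times any other library. The other 8 libraries held 0 to 4 reads each. The ratio of KO to WT was 113, with a 95% counting interval of 30.8 to 936, and that of 41585 to 41584 was 189 (33.5 to 7490). These intervals are exact for the counts and cover counting error only.

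Gbp2b, the gene long called Gbp1 in the mouse, lies next to Gbp2 and encodes a farnesylated GBP. It had the highest CPM per kb of the 4 in KO. Its CPM there was 26.5 and 18.2, against 0.464 and 0.219 in WT. In 41585 it was at 14.5 and 13.5 CPM, and in 41584 no read was counted, where 3 reads would be worth 0.274 to 0.564 CPM over the libraries. It was at 0.107 and 0.365 CPM in 41589 and at 0 and 0.188 in SOM. KO stood above 41585 without overlap, and among the other 4 groups each overlapped the next in order. The log2 fold was 6.03 ± 0.65 for KO against WT, and 41585 was at least 66.7-fold higher than 41584, set against 3 counts over the group.

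Gbp3 had the lowest CPM per kb of the 7 in KO. It was at 3.66 and 3.54 CPM in KO and at 3.63 and 2.7 in 41585. It was at 0 and 0.328 CPM in WT, at 0 and 0.155 in 41584, and at 0 in both libraries of 41589 and of SOM. In 6 of these 8 libraries no read of it was counted, and KO and 41585 overlapped, as did the other 4 groups. The ratio was 18.8 (6.08 to 93.9) for KO against WT and 45.4 (7.8 to 1830) for 41585 against 41584.

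Gbp7, a GBP that works with the phagocyte oxidase, spread widely between libraries of a group. It was at 10.4 and 5.39 CPM in KO, at 5.5 and 1.29 in 41585 and at 0 and 0.875 in WT. In 41584 it was at 0.256 and 0.155 CPM, in 41589 at 0.107 and 0.183 and in SOM at 0 and 0.752. The lower 41585 library was 1.47 times the highest of the other 8, so they were apart by a small margin, and the other 4 groups overlapped. The log2 fold of KO against WT was 3.99 ± 1.05, and the ratio of 41585 to 41584 was 16.6 (5.4 to 82.9). Gbp7 shares 637 exon bases (11.3% of its length) with the pseudogene Gm43802, which had 0 reads in all 12 libraries.

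Irgm1 encodes a regulatory IRG that keeps effector IRGs inactive on the cell's own membranes and takes part in autophagy. It was at 0.155 and 0.109 CPM in WT, which is 1 read in each, at 22.8 and 16 in KO and at 15.0 and 22.4 in 41585. The other groups were split by library: 0.128 and 2.49 CPM in 41584, 0 and 2.74 in 41589, and 0.686 and 3.95 in SOM. The lowest KO or 41585 library was 3.8 times the highest of these, which overlapped one another. The ratio of KO to WT was 155 (42.4 to 1280), and the log2 fold of 41585 against 41584 was 3.88 ± 1.13. Replicate 2 of 41584 held 16 of the 17 reads of its group.

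Irgm2, another regulatory IRG, was present in every library. It was at 2.32 and 3.39 CPM in WT and at 11.8 and 9.54 in KO, a log2 fold of 1.89 ± 0.45. It was at 6.32 and 8.62 CPM in 41585 and at 4.86 and 3.73 in 41584, a fold of 0.79 ± 0.44 that was not called. In 41589 it was at 3.96 and 3.84 CPM and in SOM at 2.74 and 5.26. KO and 41585 did not overlap. The groups 41584, SOM and 41589 did, and WT lay below 41589. The lowest library of KO and 41585 was 1.2 times the highest of the other 8.

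Igtp, also called Irgm3 and the third regulatory IRG, was at 3.25 and 3.06 CPM in WT and at 13.8 and 7.54 in KO. It was at 8.42 and 8.36 CPM in 41585 and at 2.94 and 2.02 in 41584. In 41589 it was at 2.99 and 3.2 CPM and in SOM at 1.37 and 4.32. The KO and 41585 libraries overlapped one another and not the rest, which overlapped in turn. The log2 folds were nearly equal, 1.76 ± 0.52 for KO against WT and 1.74 ± 0.53 for 41585 against 41584.

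The 4 KO and 41585 libraries were thus above the other 8 for each of the 7 genes, a pattern found in 10.2% of the 14629 genes tested. The 21 pairs of members correlated at 0.783 to 0.964 (Pearson, log2 CPM over the same 12 libraries, median 0.874), which describes genes chosen for 1 pattern.

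Scaled by exon length, the order of the genes changed between groups. In WT, Igtp gave 58.7% of the CPM per kb of the 7 genes and Irgm2 29.1%, and the 4 GBPs and Irgm1 shared what was left. In KO, Gbp2b led with 28.7%, followed by Gbp2 (20.4%), Igtp (19.1%), Irgm1 (12.1%) and Irgm2 (10.5%), with Gbp7 at 5.09% and Gbp3 at 4.0%. In 41585, Gbp2 (24.9%) and Gbp2b (23.4%) led, again ahead of Igtp (19.6%) and Irgm1 (15.2%). Lines 41584, 41589 and SOM had the makeup of WT in their leading pair, Igtp with 43.5 to 50.9% and Irgm2 with 33.5 to 43.1%.

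**Figure D3:**
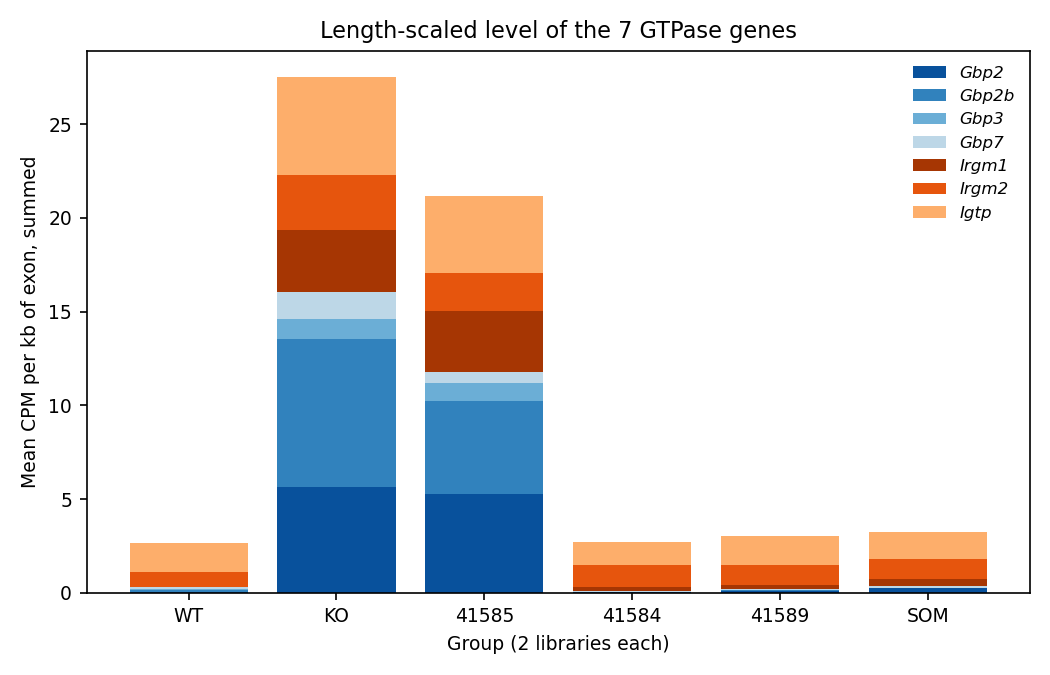
Mean CPM per kb of exon of the 7 genes, stacked, for each group of 2 libraries, with GBPs in blue and IRGs in orange. The KO and 41585 bars are several times the other 4, and most of their blue part is Gbp2b (7.91 and 4.96 CPM per kb) and Gbp2 (5.62 and 5.27).

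By edgeR at an adjusted p under 0.05 over all genes, 7 of the 7 were called higher in KO than in WT, where 7.29% of all tested genes were called higher. Since the genes were chosen for high values in KO and 41585, nothing is read from that count or from those of the next comparisons that use these libraries, and how calls moved with a library describes these data only. The calls of 5 genes depended on single libraries: 2 members were called after dropping replicate 1 of either group, 4 after dropping replicate 2 of WT and 3 after dropping replicate 2 of KO. Gbp2 and Gbp2b were called in each case. Calls among all genes also fell when 1 library was left out, here, in 41585 against 41584 and in SOM against KO. In 41585 against 41584, 6 of the 7 were called higher and Irgm2 was not (7.65% of all genes). DESeq2 called 5, without Irgm1. There, 2 were called after dropping replicate 1 of either group, 3 after dropping replicate 2 of 41585 and 4 after dropping replicate 2 of 41584, each time with Gbp2 and Gbp2b among them.

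Line 41589, described as lacking siRNA processing, did not have the high levels. None of the 7 was called against 41584, and neither was any of the 14629 genes (0% by edgeR, 0 by DESeq2, 103 at an unadjusted p under 0.05). Irgm1, Irgm2 and Igtp had log2 folds of 0.17 ± 1.18, −0.14 ± 0.44 and 0.31 ± 0.54. Those of the GBPs rest on 0 to 5 reads a group. Between 41584 and WT none of the 7 was called either, again with 0% of all genes (0 by edgeR, 28 by DESeq2, 706 at an unadjusted p under 0.05). Irgm2 and Igtp had folds of 0.58 ± 0.46 and −0.34 ± 0.54 there, while Irgm1 had 17 reads in 41584 against 2 in WT, a ratio of 9.31 (2.21 to 83.0).

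SOM was compared with KO, whose libraries also enter KO against WT. The GBPs had 0 to 7 reads a group in SOM: Gbp2 lay 4.46 ± 0.57 lower on the log2 scale, Gbp7 4.38 ± 1.14 lower, Gbp2b lower by a ratio of 254 (45.3 to 10100) and Gbp3 at least 13.4-fold lower. Irgm1, Irgm2 and Igtp differed by −3.08 ± 1.08, −1.42 ± 0.45 and −1.91 ± 0.54, with replicate 2 of SOM above replicate 1 for each. By edgeR 4 of the 7, the GBPs, were called lower in SOM (4.6% of all genes were called lower), a count from which nothing is read. DESeq2 added Igtp, and a fit of only these 2 groups called 7. With 1 library left out, 2 were called without replicate 1 of KO, replicate 2 of KO or replicate 1 of SOM, and 3 without replicate 2 of SOM.

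The other members of the 2 families were mostly silent. Of 23 further GBP, IRG and related genes, 5 passed the low-count filter and 4 had 0 reads in all libraries (F830016B08Rik, Gm5431, Gm12185 and Gvin1). Of all tested genes, 7.29% were called higher in KO against WT and 7.65% in 41585 against 41584. Of the 5 that passed the filter, 2 rose in KO against WT, 3 in 41585 against 41584, and 0 fell. Mx1, a dynamin-like antiviral GTPase, had 30 reads in WT and 1 in KO, a ratio of 28.2 (4.7 to 1150) in the other direction that was not called (edgeR adjusted p = 0.063), and 10 reads in 41584 and 0 in 41585. Gbp4, from the GBP cluster of chromosome 5, went from 0.46 ± 0.432 to 12.7 ± 4.27 CPM in KO (log2 fold 4.64 ± 0.94, edgeR adjusted p = 0.00919). It also rose in 41585 (3.15 ± 0.82, adjusted p = 0.0288). Its call was lost without replicate 1 of WT or of KO (adjusted p up to 0.106), and in 41585 without replicate 1 or 2 of 41585 or replicate 1 of 41584 (up to 0.144).

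Tgtp1 encodes an effector IRG of the kind that Irgm proteins hold in check. It rose in KO from 1 read to 90, a ratio of 95.6 (16.7 to 3820, edgeR adjusted p = 0.00783), and in 41585 by 4.11 ± 1.00 (adjusted p = 0.0221). Of its 50-base words 81.2% occur in another gene, chiefly Tgtp2, so the split between these copies is uncertain, and the call was lost without either WT library (up to 0.0684) or without replicate 1 or 2 of 41585 or replicate 1 of 41584 (up to 0.092). The effector IRG gene Iigp1 had 1 read in all 12 libraries and Ifi47 had 4. Gbp9 rose in 41585 (2.12 ± 0.54, adjusted p = 0.0261, lost without replicate 2 of 41585 or either 41584 library, up to 0.234) and had a fold of 1.42 ± 0.54 in KO that did not pass (0.0961). Irgq, a distant IRG relative, was at 7.2 to 13.0 CPM throughout, with −0.21 ± 0.37 in KO.

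Of the interferon genes, 4 were looked at. Ifnb1, Ifnl2 and Ifnl3 had 0 reads in all libraries and Ifng had 2, both in replicate 2 of 41584, where at this depth 3 reads would be worth 0.274 to 0.564 CPM. Of 25 genes for ligands, receptors and signalling, 18 were tested. In KO against WT 5 rose and 2 fell, with a median log2 fold of 0.47 (all genes −0.00). In 41585 against 41584 4 rose and 0 fell, with a median of 0.31 (all genes −0.01). Of all genes 7.29% and 7.65% were called higher, and 5.9% and 5.07% lower.

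Of the 7 calls in KO, 4 were IRF genes. Irf1, the transcription factor that interferon-gamma induces and that drives GBP genes, was at 8.97 and 14.4 CPM in WT and at 69.5 and 58.8 in KO (2.44 ± 0.37, edgeR adjusted p = 0.0021). It was at 76.4 and 74.2 CPM in 41585 against 10.4 and 11.8 in 41584 (2.76 ± 0.38, adjusted p = 0.00149). Irf1 was called in both comparisons whichever library was left out. Irf2, a relative that binds the same element, rose by 4.81 ± 0.85 in KO (adjusted p = 0.00472, lost without replicate 1 of KO at 0.0527), and from 1 read to 182 in 41585, a ratio of 159 (28.2 to 6310). Irf9, a DNA-binding part of the factor that type I interferon activates, rose by 1.56 ± 0.31 (adjusted p = 0.00885, lost without replicate 1 of WT or of KO, up to 0.109) and by 1.65 ± 0.31 (0.00817).

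Ifngr2, a chain of the interferon-gamma receptor, rose by 1.29 ± 0.39 (edgeR adjusted p = 0.0476) and 1.45 ± 0.39 (0.0331). Its call was lost without any 1 of the WT and KO libraries (up to 0.289), and without either 41585 library or replicate 2 of 41584 (up to 0.156). Irf8, an IRF of myeloid cells, fell in KO from 79 reads to 2, a ratio of 37.2 (9.96 to 312, adjusted p = 0.0122), lost without replicate 1 of WT or of KO (up to 0.137). Nlrc5, the activator of class I genes, fell by 2.80 ± 0.80 on the log2 scale (adjusted p = 0.0372, lost without any 1 of the 4 libraries, up to 0.206).

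Of 32 antiviral genes that interferon induces, 26 were tested. In KO 15 rose and 0 fell (median log2 fold 2.23), and in 41585 12 rose and 0 fell (1.78). Of all genes 7.29% and 7.65% were called higher. Oasl2, of the oligoadenylate synthetase family, was at 35.4 and 29.6 CPM in KO against 0.309 and 0.438 in WT (6.35 ± 0.87, edgeR adjusted p = 0.0015), and at 24.1 and 9.39 CPM in 41585 against 0 in 41584, at least 81.2-fold higher. Its call held whichever library was left out. Ifi35 rose by 2.39 ± 0.49 in KO and by 3.77 in 41585, Oas1a by 2.64 ± 0.48 and 3.23, and the membrane protein gene Ifitm3 by 2.06 ± 0.42 and 2.41. In 41585 these 3 calls held whichever library was left out. In KO each was lost without replicate 1 of WT or of KO, and that of Ifi35 also without replicate 2 of WT (adjusted p up to 0.111, 0.0797 and 0.115).

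The ADP-ribosyltransferase genes Parp9 and Parp14 rose by 2.82 ± 0.37 and 2.43 ± 0.41 in KO and by 1.71 and 1.94 in 41585. The call of Parp14 in KO was lost without replicate 1 of WT (edgeR adjusted p = 0.0639), and those of both in 41585 without its replicate 1 (0.0715 and 0.0688). Zbp1, a nucleic acid sensor, rose by 5.76 ± 0.96 in KO, lost without replicate 1 of WT (0.059), and by 3.38 in 41585, lost without either 41585 library or replicate 1 of 41584 (up to 0.077). Xaf1 rose by 1.76 ± 0.34 and 1.85, with the first lost without either WT library or replicate 1 of KO (up to 0.0677) and the second without replicate 1 of 41585 (0.0618). Isg15 and Ifit3, common reporters of interferon signalling, did not pass the low-count filter. Isg15 was at 0 to 0.702 CPM, with reads in KO and 41585 libraries only, and Ifit3 at 0 to 0.274. Rsad2, of the same list, rose by 3.36 ± 0.94 in KO (edgeR adjusted p = 0.0348) and by 3.45 ± 0.98 in 41585 (0.038). Ifit1 had 65 reads in KO against 0 in WT (0.0156) and was not called in 41585 (0.0594). How the calls of Rsad2 and Ifit1 depend on single libraries is not given.

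Of 19 genes for class I antigen presentation and interferon-gamma chemokines, 14 were tested. In KO 5 rose and 0 fell (median log2 fold 1.08), and in 41585 6 rose and 0 fell (1.77). Of all genes 7.29% and 7.65% were called higher. The trimming peptidase gene Erap1 was at 51.5 and 38.5 CPM in KO against 1.55 and 1.64 in WT (4.80 ± 0.43, edgeR adjusted p = 0.000124) and rose by 3.94 ± 0.41 in 41585 (0.000306). Tapbp, which encodes tapasin, rose by 3.12 ± 0.28 (0.000124) and 2.88 ± 0.28 (0.000216). The proteasome activator gene Psme2 rose by 2.20 and 2.4 and its partner Psme1 by 1.48 and 1.19, the latter lost in 41585 without its replicate 1 (0.0598). Psmb8, an immunoproteasome subunit gene, went from 1 read to 101 and from 1 to 115, ratios of 107 (18.8 to 4280) and 100.0 (17.7 to 4000). The calls of Erap1, Tapbp, Psme2 and Psmb8 in both comparisons, and that of Psme1 in KO, held whichever library was left out. H2-D1 rose in 41585 only by this test (1.64 ± 0.47, adjusted p = 0.0401, lost without either 41585 library or replicate 2 of 41584, up to 0.223), with a difference between the 2 folds of −0.52 that had an adjusted p of 0.999. The other tested genes of this list were called in neither comparison. Their log2 folds ran from −0.71 for B2m to 1.48 for Psmb10 in KO, with 0.17 for Tap1 and 0.18 for H2-K1. In 41585 they ran from −0.48 for B2m to 3.03 for Tap2. The chemokine genes Cxcl9 and Ccl5 had 0 reads in all libraries, and Cxcl10 was at 0 to 0.702 CPM.

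GBP and IRG proteins use lipid anchors and the conjugation machinery of autophagy, and 17 such genes were tested. Of these, 1 rose in KO and 2 in 41585, with 0 falling and medians of 0.05 and 0.17, near the 7.29% and 7.65% of all genes called higher. Fntb, a chain of the farnesyltransferase that anchors proteins of the kind Gbp2b encodes, rose by 1.34 ± 0.39 in KO (edgeR adjusted p = 0.0393) and by 1.78 ± 0.39 in 41585 (0.0145). The first call was lost without any 1 of the 4 libraries (up to 0.268) and the second without either 41585 library or replicate 1 of 41584 (up to 0.0774). The autophagy receptor gene Sqstm1 rose in 41585 (0.84 ± 0.26, adjusted p = 0.0475, lost without either 41585 library or replicate 2 of 41584, up to 0.211).

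Over the 4 interferon lists, 63 of 99 genes were tested. In KO 27 rose and 2 fell (median 1.03), and in 41585 25 rose and 0 fell (median 1.17). Of all genes 7.29% and 7.65% were called higher and 5.9% and 5.07% lower. The lists were chosen with earlier results of these data known, so their counts are a description, which supports nothing by itself. The 29 calls in KO became 9 after dropping replicate 1 of WT, 19 after dropping its replicate 2 and 11 after dropping replicate 1 of KO. The 25 in 41585 became 12 without its replicate 1 and 16 without its replicate 2. In 41589 against 41584, 0 of the 63 were called by edgeR or DESeq2, and 0 had an unadjusted p under 0.05. In 41584 against WT 0 were called by either tool and 4 had an unadjusted p under 0.05. In SOM, 25 fell against KO and 0 rose (median −1.25), with 5 calls without replicate 1 of KO, 11 without replicate 2 of KO, 6 without replicate 1 of SOM and 9 without replicate 2 of SOM. Across all genes 4.6% were called lower there and 1.48% higher. Leaving out 1 library also lowered the calls among all genes in KO against WT, 41585 against 41584 and SOM against KO.

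**Figure D4:**
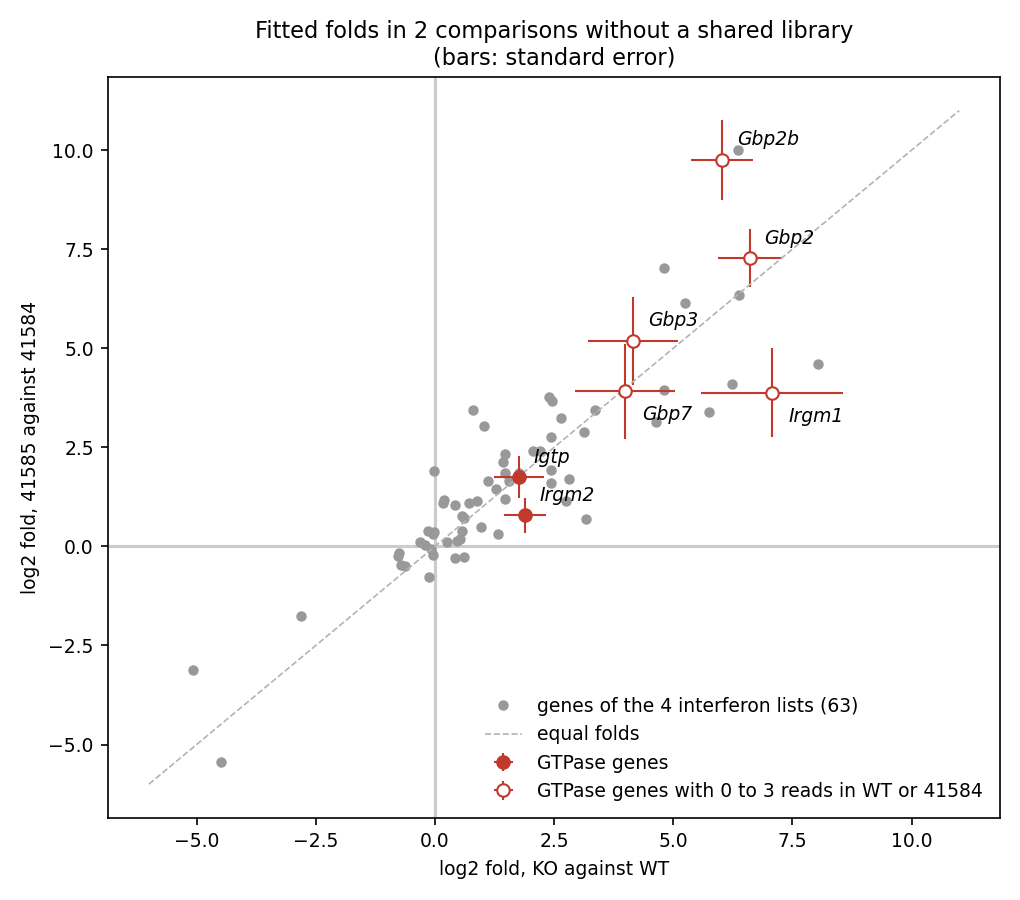
Fitted log2 folds (edgeR) of KO against WT on the x axis and of 41585 against 41584 on the y axis, for the 7 GTPase genes in red with standard errors and for the 63 tested genes of the 4 interferon lists in grey. Open red symbols mark GTPase genes with 0 to 3 reads in WT or 41584, whose fitted folds depend on the prior count and are no bounds. Grey points are not marked in this way, though some rest on as few reads, such as Oasl2 with 0 in 41584. Igtp lies on the line of equal folds (1.76 and 1.74).

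The 2 comparisons were set against each other by a contrast of their folds, chosen after the data had been seen. For the members the difference ran from −3.72 for Gbp2b to 3.19 for Irgm1, and was 1.10 for Irgm2, 0.06 for Gbp7 and 0.01 for Igtp. Gbp2b had 5 reads in WT and 0 in 41584, and Irgm1 had 2 and 17. Among all genes 0 were called (0% of 14629 by edgeR, 419 at an unadjusted p under 0.05, 3 of them in the 4 interferon lists), and DESeq2 was not run on this contrast.

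The genes around the members were counted with other GBP and IRG family genes left out. Of all tested genes, 7.29% were called higher in KO and 7.65% in 41585, and nothing is read from counts as small as these. Within 500 kb of the chromosome 3 cluster, 5 other genes were tested and 0 were called in KO or in 41585, with median folds of 0.14 and 0.18. Around Irgm1, 8 were tested and Psme2b rose in both (3.16 ± 0.62, edgeR adjusted p = 0.00836, and 2.39 ± 0.60, 0.0243). It is a copy of Psme2, so its reads are uncertain. Tgtp1, a family gene left out here, also lies within 500 kb of Irgm1 and rose in both comparisons, as given above. Around Igtp and Irgm2, 13 were tested, of which the transcription factor gene Hand1 rose in KO (3.27 ± 0.84, adjusted p = 0.0249) and 0 in 41585.

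The genes whose log2 CPM most resembled the mean of the 7 over the 12 libraries came from other families. They were Tmem131l (Pearson 0.991), Myb (0.988), Ninl (0.987), Acsl5 (0.985), Rcan3 (0.985), Phlpp1 (0.982), Anxa7 (0.982), Pglyrp3 (0.981), Anxa1 (0.98) and Pdzd2 (0.98). Myb, for instance, was at 3.54 CPM on average in WT, 16.5 in KO, 13.1 in 41585 and 3.96 to 4.72 in the other 3. Closest to Gbp2 were Pdzd2 (0.99), Irak2 (0.989) and Apela (0.986), and closest to Irgm1 were Pirt (0.988), Tnfrsf21 (0.985) and Tcf7l2 (0.984). These coefficients describe the same 12 libraries and carry no test.

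The members share stretches of sequence with other genes. For Irgm1 these genes lie outside the 2 families, and for Irgm2 some do, though most of its shared words are in Igtp. Of the 50-base words in their transcripts, 2.03% in Gbp2 and 1.84% in Gbp2b are shared with each other, 3.75% in Gbp3 and 12.7% in Gbp7 with other genes, 0.31% in Irgm1, 7.77% in Irgm2 and 11.8% in Igtp. The sources used here do not say how the counting treated reads from such stretches.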

How the data were processed

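Poly(A) RNA was sequenced with a reverse-stranded TruSeq protocol, per the labels' protocols. Reads were aligned with STAR 2.4.2a to mm10, per the submitters' processing notes. The sources used here name neither the counting program nor its annotation. The authors deposited raw counts per gene, and each column was mapped to its library by the labels.

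GENCODE M21 (GRCm38) gave symbols to 47224 of 47643 genes. CPM are reads over the TMM-scaled library total. Groups were compared with edgeR 4.0.16 (quasi-likelihood, robust, filterByExpr, all 12 libraries), giving 14629 tested genes and 6 residual degrees of freedom, with Benjamini-Hochberg adjustment and a threshold of 0.05. DESeq2 1.42.0, other scaling and filters, 2-group fits, a replicate block and leaving out libraries were the alternatives. The code was tested on simulated data. Where a group held 0 reads, the fold is a bound against 3 counts over the group. With 1 to 3 reads it is a ratio with a 95% counting interval.

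The members and lists were chosen with earlier results of these data known. Named genes are the 7 members, Dicer1 and up to 8 called genes per list by adjusted p. Also named are the 10 genes outside the lists most like the members (3 each for Gbp2 and Irgm1). Other genes, such as Iigp1, Isg15 or Hand1, were chosen after their values were seen. Replicate numbers did not pair the libraries. A called gene of the signalling list is counted there and not reported by name here.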

Additional observations from a re-analysis of the deposited data

How the results depend on the processing

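No called value changed direction, while the summed CPM in 41589 against 41584, a small difference, changed sign without replicate 2 of 41589. Fold values of the members were compared with the pooled SD of log2 CPM between libraries of the 2 groups, which is not the SE printed above. Those that moved by no more than this SD were 51 of 63 in KO against WT, 53 of 62 in 41585 against 41584 and 50 of 63 in SOM against KO. Of the values of named list genes, 168 of 207, 167 of 207 and 110 of 144 kept their call. In the order KO against WT, 41585 against 41584, 41589 against 41584, 41584 against WT and SOM against KO, genes called numbered 1929, 1861, 0, 0 and 889. Without a low-count filter they were 2950, 3073, 3, 132 and 1544. Leaving out 1 library gave 237 to 606, 348 to 1820, 0 to 1, 0 to 106 and 107 to 368. With only the 2 groups in the fit the first, second and last became 4892, 403 and 2265, and DESeq2 called 28 genes in 41584 against WT. Calls in the 4 interferon lists ranged from 9 to 22, 12 to 23 and 5 to 11 without 1 library in KO against WT, 41585 against 41584 and SOM against KO. They were 11 in 41585 against 41584 with only those 2 groups, and 1 in 41584 against WT without a filter. DESeq2 called 5 members in 41585 against 41584, without Irgm1, and 5 in SOM against KO, with Igtp. Members called ranged from 2 to 4, 2 to 4 and 2 to 3 without 1 library. With only the 2 groups they were 2 in 41585 against 41584, where 6 passed the filter, and 7 in SOM against KO. Fewer samples or other genes enter these fits. Otherwise the cause was not tested. A lone library was taken to vary as much as libraries of the other groups.

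The log2 ratio of the summed CPM was 5.80, 4.99 and −4.30 for 5 members without Irgm2 and Igtp, in KO against WT, 41585 against 41584 and SOM against KO, an alternative chosen after seeing the data. Without 1 library it ran from 0.06 to 0.41 in 41584 against WT, from −0.21 to 0.33 in 41589 against 41584 and from −4.02 to −2.56 in SOM against KO.

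Libraries of the same number correlated at −0.083 to 0.508 in their deviations from the group means, over 0.1 in 5 of 15 group pairs. With the replicate block the genes called were 2346, 2170, 0, 0 and 1084, those of the interferon lists 29, 31, 0, 0 and 27, and the members 7, 6, 0, 0 and 5, Irgm1 being added in SOM against KO. At this depth, levels of 3 reads or fewer, as for the GBPs in most libraries outside KO and 41585, cannot be ordered.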

Other observations

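Outside KO and 41585, Irgm1 followed the libraries that stood apart on the second principal component, a split chosen after seeing the data. In both SOM libraries and replicate 2 of 41584 and of 41589 it had 4 to 30 reads (0.686 to 3.95 CPM), and in both WT libraries and replicate 1 of 41584 and of 41589 it had 0 to 1 (0 to 0.155 CPM). Tgtp1, of the same chromosome 11 cluster, had 2 to 5 reads in the former 4 and 0 to 1 in the latter. Its 2 reads in SOM replicate 1 and 1 read in WT replicate 1 cannot be ordered at this depth. Whether Tgtp1 was split like Irgm1 therefore cannot be told. The other 6 members overlapped between these sets of 4, as did Gbp4 (4 to 28 reads against 1 to 8) and Gbp9 (2.01 to 4.82 CPM against 4.38 to 6.8). Across all tested genes 10.5% were higher in all 4 of the first set and 14.3% were lower in all 4.

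Ddx58, which encodes the RNA sensor RIG-I and belongs to the antiviral list, had a like split, at 66.6 to 107 CPM in those 4 libraries and 4.95 to 25.9 in the other 4. In KO it was at 126 and 107 CPM and in 41585 at 82.8 and 96.9. This gene was chosen after its values were seen.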
